A study of Mus musculus with 2 samples.

Results

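The transcription factors described here are 10 genes that mark or direct the luminal and basal lineages of the mammary gland: Gata3, Foxa1, Nfib, Tfap2c, Cebpb, Sox9, Sox10, Runx1, Trp63 and Snai2. They were taken by symbol from the 27179 features of the deposited count matrices, and all 10 were found. The cells came from 1 library of Ehf knockout mice and 1 library of wild type mice. Both genotypes were adult females at 18.5 days of pregnancy, and each library pooled the mammary glands of 2 females. The sort kept cells without Ter119, CD31 or CD45, which is meant to remove blood and endothelial cells. The kept cells were captured with the 10x Chromium 3' chemistry. Ehf is a transcription factor of the ETS family, and the design asks what its deletion does to the epithelium late in pregnancy. Which part of Ehf was deleted, in which cells, and on which strain background was not given in the sources used here.

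The mammary epithelium has an inner luminal and an outer basal layer. Luminal cells are either secretory, which make milk from late pregnancy on, or hormone-sensing, which carry the oestrogen and progesterone receptors. Basal cells contract and push the milk out. Each state is held by a set of transcription factors: Gata3 and Foxa1 are known for luminal identity, Cebpb and Nfib for the growth and milk program of alveoli, Sox9 and Sox10 for progenitor states, and Trp63 and Snai2 for basal identity.

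Of 7275 knockout and 11258 wild type barcodes, 6523 and 9089 were kept, with medians of 3894 and 2481 unique molecular identifiers (UMIs, 1 per captured transcript). The libraries shared 25 barcodes, of which 15 were kept in both. Clusters built without the 10 factors and without milk genes were named from other markers. This gave 810 knockout and 2562 wild type luminal secretory-like cells, 5497 and 6218 basal-like cells, and 145 and 125 hormone-sensing-like cells. They are called by these names below without the suffix. The luminal secretory class joins clusters named alveolar (4 and 6) and luminal progenitor (5 and 15). Clusters 4 and 6 held 48 and 268 knockout cells against 1505 and 387 wild type cells. Clusters 5 and 15 held 426 and 68 against 619 and 51. The make-up of this class thus differs between the libraries, and its ratios are not adjusted for that. Sorting, the minimum of UMIs and the gap in depth can each set such numbers. Fibroblasts (23 and 52 cells), pericytes (6 and 29) and an unnamed cluster with endothelial and immune genes (42 and 103) made up the rest. Ehf itself had 1063 UMIs in knockout and 3341 in wild type luminal secretory cells, a log2 ratio of -1.36 (95% interval -1.46 to -1.26), and a 3' tag outside the deleted part would check nothing.

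Levels are summed UMIs of a class as CPM, counts per 1000000 UMIs, scaled so that the median gene of the class has a knockout over wild type ratio of 1 (log2 of 0). With 1 library per genotype there is no replicate and no test. Intervals are 95% and cover counting error only, and a factor counts as higher or lower from a difference of 1.5-fold (log2 of 0.58), a rule of size. The scaling matters in luminal secretory cells, where milk protein genes held 10.4% of the UMIs of the knockout library and 38.9% of those of the wild type library. On plain CPM the median gene of that class lay at a log2 ratio of 0.86. On CPM outside milk genes (milk protein and milk lipid genes) it lay at 0.28, so luminal ratios are relative to that shift. On plain CPM the median gene lay at -0.01 in basal and 0.01 in hormone-sensing cells.

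Between the libraries 3 values passed that rule: Cebpb and Sox10 in basal cells, and Gata3 in luminal secretory cells. The RefSeq table of promoters (GRCm38.p6) held 4 of the 10 factors, Cebpb, Gata3, Foxa1 and Runx1. For Cebpb and Gata3 the 250 bases before an annotated start are printed, because these factors differed and because Ehf belongs to the ETS family, whose proteins bind a GGAA core. Capitals mark GGAAG or its reverse complement CTTCC, the motif searched on both strands. The Cebpb window is chr2:167688665-167688914 on the plus strand and the Gata3 window is chr2:9878601-9878850 on the minus strand, before a start inside the annotated span of Gata3.
Cebpb: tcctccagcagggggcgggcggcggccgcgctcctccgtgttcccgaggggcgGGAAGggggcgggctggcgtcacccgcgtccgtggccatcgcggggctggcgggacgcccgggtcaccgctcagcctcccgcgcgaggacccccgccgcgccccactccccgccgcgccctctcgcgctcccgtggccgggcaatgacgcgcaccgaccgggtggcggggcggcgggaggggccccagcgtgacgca
Gata3: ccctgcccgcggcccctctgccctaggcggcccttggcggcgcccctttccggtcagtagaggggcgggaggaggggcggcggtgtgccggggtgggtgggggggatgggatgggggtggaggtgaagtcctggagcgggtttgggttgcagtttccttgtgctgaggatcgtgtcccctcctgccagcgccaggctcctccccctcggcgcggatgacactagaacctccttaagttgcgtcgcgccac
The Cebpb window held 1 match of this longer motif and the Gata3 window 0. The shorter GGAA core was not counted, and its reverse complement ttcc stands in both windows outside any marked match. Among 32851 RefSeq promoter windows of the same length, 64.1% held at least 1 match, so a match is common and is a description of these letters only.

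Cebpb, a basic leucine zipper factor known for its need in alveolar growth and lactation, lies at 167688915 to 167690432 on chromosome 2, plus strand. In basal cells it had 19791 UMIs in the knockout library and 4553 in the wild type library. Its scaled level there was 823 against 307 CPM, a log2 ratio of 1.42 (1.38 to 1.47) or 2.68-fold. It was the single factor called higher in basal cells, where 6.08% of 12204 tested genes were called higher. After every cell was thinned to 2000 UMIs, a Cebpb UMI remained in 75.9% of the 5304 knockout basal cells and in 41.9% of the 3276 wild type ones. Without thinning the shares were 89.9% and 47.6%, at median depths of 3681 and 2042 UMIs. Hormone-sensing cells held Cebpb in 11.9% and 12.3% of thinned cells, so the share in basal cells was well above that of a class of low level.

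The difference in Cebpb was present in most basal clusters but not in every one. Among the 9 basal clusters with at least 50 cells of each library, the log2 ratio was above 0 in 7 with an interval that did not include 0, from a log2 of 1.09 in cluster 3 to 1.80 in cluster 8, which mitosis genes lead. In the largest clusters of each library, cluster 2 of the knockout and cluster 0 of the wild type, it was 1.17 and 1.26. In cluster 11, led by the smooth muscle RNA Carmn and small nuclear RNAs, Cebpb was at 176 CPM (knockout) and 196 CPM (wild type), a ratio of -0.21 (-0.90 to 0.49). In cluster 14, led by ribosomal RNA genes, it was at 945 and 744 CPM, a ratio of 0.27 (-0.13 to 0.68). Different clusters hold most of the basal class in each library: 2138 and 1583 of the knockout cells lay in clusters 2 and 3, while 2933 and 2039 of the wild type cells lay in clusters 0 and 1.

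A list of 15 immediate early and stress genes, chosen after the values of Cebpb were seen, was set beside it. In basal cells 0 of 15 were called higher and 3 lower in the knockout library, where 6.08% and 6.51% of all genes were. In luminal secretory cells these were 0 and 4, where 15.1% and 18.1% of genes were, and in hormone-sensing cells 2 and 1, where 9.28% and 8.40% were. The list's basal median log2 ratio was -0.10, its members ran from -0.84 to 0.43, and its summed scaled level was 17425 against 22294 CPM. Fos was at -0.84 and Jund at 0.43, so its members went both ways, and the part of cell handling in the Cebpb result was not tested. Without the mitosis-led clusters 6 and 8 the Cebpb ratio in basal cells was 1.40.

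**Figure D1:**
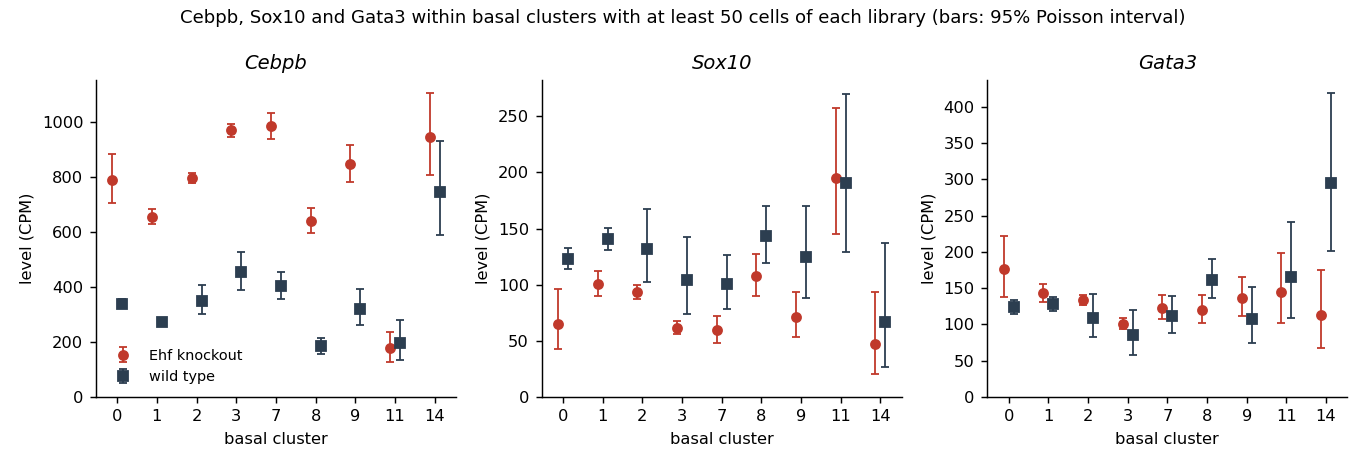
Level in CPM (vertical axis, from 0) of Cebpb, Sox10 and Gata3 in each basal cluster with at least 50 cells of each library, with knockout as red circles, wild type as dark squares and 95% Poisson bars. Cebpb is higher in the knockout library in all clusters but 11 and 14, where the intervals overlap, and Sox10 is lower in the same 7 clusters.

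In luminal secretory cells Cebpb differed far less on the same scaling. It had 7526 and 7561 UMIs, which gave 424 and 349 scaled CPM, a log2 ratio of 0.28 (0.24 to 0.33), within 1.5-fold, although plain CPM put it at 1.14. In hormone-sensing cells 85 and 58 UMIs gave 74.9 against 93.0 scaled CPM and a ratio of -0.31 (-0.81 to 0.19). That ratio ran from -2.05 with a stricter cell filter to 2.45 with free RNA subtracted, so no direction is read from it. The free RNA subtraction was set at 10.7% of knockout and 33.7% of wild type UMIs in this class. The log2 ratio of basal over luminal secretory cells was 0.44 (0.41 to 0.48) in the knockout library. In the wild type library it was -0.64 (-0.70 to -0.59), so the order of the classes was the opposite there, but on plain CPM it was 0.25 and the order was the same. Within luminal clusters the Cebpb ratio was 0.26 in cluster 5, 0.33 in cluster 6 and 1.06 (0.64 to 1.49) in cluster 15. Each was scaled to the median gene of its own cluster, which lay at 0.42, 0.71 and 0.01 on plain CPM. Plain Cebpb levels were 578 against 359 CPM in cluster 5 and 589 against 286 CPM in cluster 6. Thinned shares with a Cebpb UMI were 60.7% and 36.7% of luminal secretory cells. Thinning drew from all UMIs, those of milk genes included. For every factor the luminal secretory shares are thus to be set beside plain CPM and not beside the scaled ratio. Hormone-sensing cells were lowest in both libraries, at -2.93 and -2.28 relative to luminal secretory cells.

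Gata3 is a zinc finger factor needed to form and keep luminal cells. It lies at 9857078 to 9887953 on chromosome 2, minus strand, and overlaps the long noncoding genes 4930412O13Rik and 9230102O04Rik. Whether the counting used strand was not given in the sources used here, so reads of such neighbours cannot be told apart from its own. In luminal secretory cells Gata3 had 1440 knockout and 2870 wild type UMIs, a scaled level of 81.1 against 132 CPM. The log2 ratio was -0.71 (-0.80 to -0.61), the single call among the 10 factors in this class, where 18.1% of 11139 genes were called lower and 15.1% higher. This call rests on the scaling: the ratio was -0.43 outside milk genes and 0.15 on plain CPM. Within luminal clusters it was -0.79 in cluster 5, -0.75 in the mitosis-led cluster 6 and -0.43 (-0.94 to 0.10) in cluster 15. These ratios rest on the same kind of scaling, to the median gene of each cluster. Plain Gata3 levels were 102 against 132 CPM in cluster 5 and 112 against 115 CPM in cluster 6. Cluster 4, with 1505 wild type and 48 knockout cells, was not compared. Within basal clusters the Gata3 ratio ran from -1.47 (19 and 31 UMIs) in cluster 14 to 0.54 (0.16 to 0.90) in cluster 0, with no direction common to all.

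Gata3 was highest in hormone-sensing cells, at 388 scaled CPM in knockout and 439 in wild type cells, a ratio of -0.18 (-0.40 to 0.04). They exceeded luminal secretory cells by a log2 of 1.82 in knockout and 1.36 in wild type cells, and basal cells by 1.72 and 1.83. Basal cells held Gata3 at a level near that of luminal secretory cells, despite its name as a luminal factor. Basal levels were 126 scaled CPM in both libraries, a ratio of 0.00 (-0.09 to 0.08). The basal over luminal secretory log2 ratio was 0.12 (0.03 to 0.21) in knockout and -0.53 (-0.61 to -0.44) in wild type cells, or 0.20 and 0.37 on plain CPM. The alveolar markers, which free RNA of milk-making cells would carry, summed to 1088 CPM in knockout basal cells against 83245 CPM in luminal secretory cells, and to 14671 against 362132 CPM in the wild type library. The hormone-sensing markers summed to 54.0 and 70.9 CPM in basal cells, against 7800 and 3906 CPM in hormone-sensing cells. A free RNA subtraction was among 14 alternatives. Over these the basal over luminal secretory ratio of Gata3 ran from 0.04 to 0.20 in knockout and from -0.59 to 0.37 in wild type cells. The part of free RNA in the Gata3 level of basal cells was itself not tested. Thinned shares with a Gata3 UMI were 20.8% and 21.0% of basal cells, 18.3% and 17.1% of luminal secretory cells, and 46.9% and 50.8% of hormone-sensing cells.

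Foxa1, a forkhead pioneer factor that opens chromatin for the oestrogen receptor, lies at 57540628 to 57548029 on chromosome 12, minus strand, and overlaps Ttc6 on the other strand. It was close to a marker of hormone-sensing cells, where 136 knockout and 50 wild type UMIs gave 120 against 80.2 scaled CPM. That level was above the one in luminal secretory cells by a log2 of 5.26 (4.75 to 5.80) in knockout and 4.18 (3.63 to 4.72) in wild type cells. The hormone-sensing ratio between libraries was 0.58 (0.10 to 1.08), just under the 1.5-fold rule, with a thinned share of 21.0% of 143 and 13.9% of 122 cells whose intervals overlapped (14.6 to 28.6% and 8.33 to 21.4%). In the other classes the thinned share was between 0.511% and 0.855%, at levels of 2.31 to 4.04 scaled CPM. In luminal secretory cells 41 and 74 UMIs gave a ratio of -0.56 (-1.15 to 0.01), or 0.29 on plain CPM, and in basal cells 85 and 60 UMIs gave -0.19 (-0.69 to 0.31). No difference was detectable at this depth in either.

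Nfib, of the nuclear factor I family that binds near milk genes together with Stat5, lies at 82290173 to 82506751 on chromosome 4, minus strand. Its level was highest in basal cells, with 837 scaled CPM in knockout and 881 in wild type cells, a ratio of -0.07 (-0.11 to -0.04). Luminal secretory cells had 362 and 438 scaled CPM, a ratio of -0.28 (-0.32 to -0.23) that was 0.00 outside milk genes and 0.58 on plain CPM. Hormone-sensing cells had 143 and 181, a ratio of -0.34 (-0.70 to 0.02) that was -0.97 with no doublets left out and 2.68 with free RNA subtracted. Basal cells stood above luminal secretory cells by a log2 of 0.70 and 0.55, and hormone-sensing cells stood below them by -1.77 and -1.65. Nfib was thus lowest in hormone-sensing cells of both libraries. Its thinned shares were 78.3% and 81.7% of basal, 52.9% and 42.0% of luminal secretory, and 19.6% and 27.0% of hormone-sensing cells. The luminal secretory shares, on UMIs that include those of milk genes, go with plain CPM and not with the scaled ratio.

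Tfap2c encodes AP-2 gamma, known from luminal cells and from breast tumours, and lies at 172545678 to 172558622 on chromosome 2, plus strand. In these cells it was mainly basal. It had 5464 and 4036 UMIs in basal cells, or 227 against 272 scaled CPM, a ratio of -0.26 (-0.32 to -0.20). Luminal secretory cells had 39.9 and 47.1 scaled CPM, a ratio of -0.24 (-0.38 to -0.10) that was 0.04 outside milk genes. Basal cells exceeded luminal secretory cells by a log2 of 2.00 (1.88 to 2.11) in knockout and 2.07 (1.97 to 2.17) in wild type cells. At 2000 UMIs per cell, 36.2% and 40.7% of basal cells held a Tfap2c UMI, against 9.07% and 7.45% of luminal secretory and 1.40% and 0.820% of hormone-sensing cells. Hormone-sensing cells had 11 and 8 UMIs in all, under the minimum of 50 UMIs for a comparison.

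**Figure D2:**
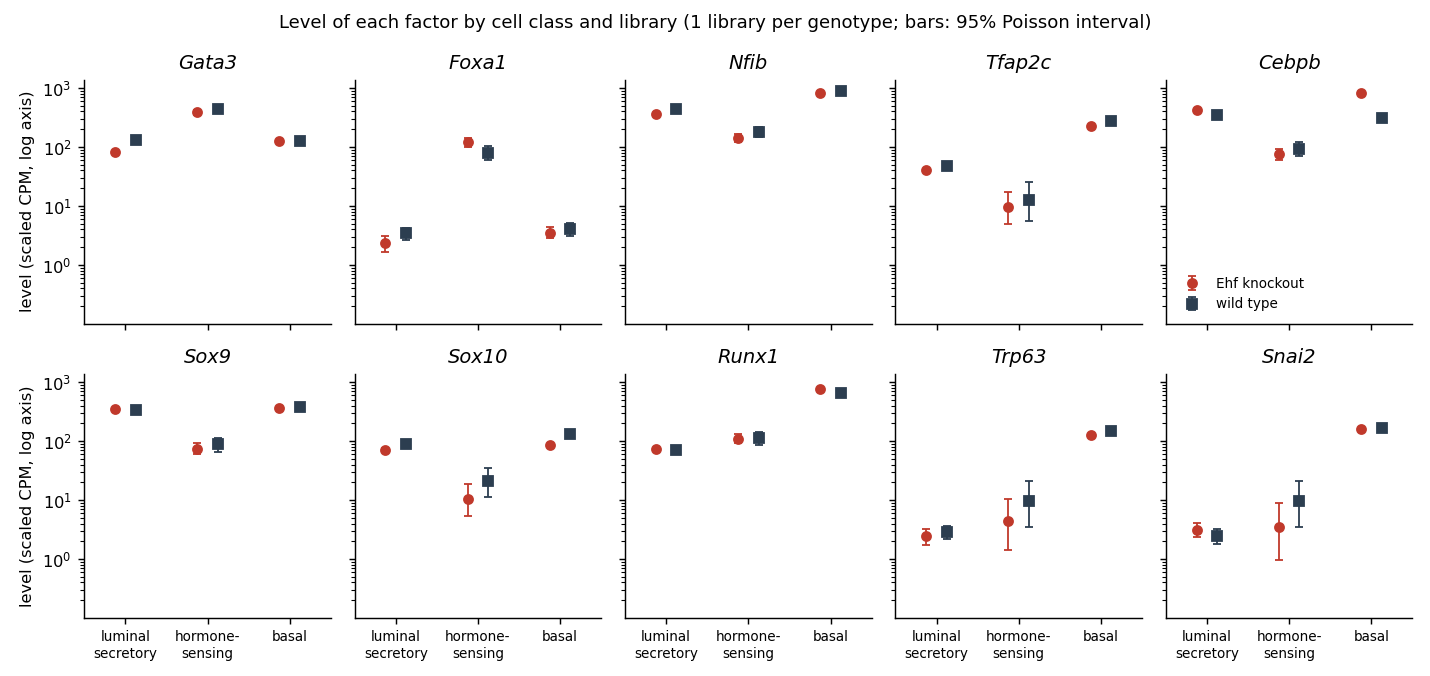
Level of each factor in scaled CPM (log axis) in luminal secretory, hormone-sensing and basal cells of the knockout (red circles) and wild type (dark squares) library, with 95% Poisson bars. Scaling is within a class, so neighbouring symbols compare libraries, and differences between classes are those of the class ratios in the text. Trp63, Snai2, Runx1 and Tfap2c are highest in basal cells, and Foxa1 and Gata3 in hormone-sensing cells.

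Sox9 is an HMG box factor of progenitor and secretory luminal cells, at 112782210 to 112787757 on chromosome 11, plus strand. It had 351 against 332 scaled CPM in luminal secretory cells, a ratio of 0.08 (0.03 to 0.13), and 363 against 386 in basal cells, a ratio of -0.09 (-0.14 to -0.04). Hormone-sensing cells had 74.9 and 88.2, a ratio of -0.24 (-0.74 to 0.28) that ran from -1.20 to 1.53 with a stricter cell filter and with free RNA subtracted, and lay below luminal secretory cells by a log2 of -2.66 and -2.29. Basal and luminal secretory cells differed by -0.46 in knockout and -0.24 in wild type cells, both within 1.5-fold, although plain CPM gave 0.65 in the wild type library. Sox9 was thus within 1.5-fold between the main layers on median-ratio scaling and low in the hormone-sensing class. Its thinned shares were 52.9% and 34.2% of luminal secretory cells, on UMIs that include those of milk genes, 43.1% and 47.3% of basal cells, and 12.6% and 18.9% of hormone-sensing cells.

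Sox10, a related HMG box factor of mammary stem and progenitor states that is also a marker of Schwann cells, lies at 79154913 to 79164490 on chromosome 15, minus strand. In basal cells it was lower in the knockout library, with 2027 UMIs against 1943 in fewer total UMIs of the wild type. That is 84.2 against 131 scaled CPM, a log2 ratio of -0.64 (-0.73 to -0.54) or 1.55-fold lower, the single call of that direction among the 10 factors where 6.51% of genes were called lower. The thinned share was 14.6% in knockout and 22.9% in wild type cells, with intervals apart (13.6 to 15.6% and 21.5 to 24.4%). The ratio was between -0.42 in cluster 8 and -0.88 in cluster 0 over 7 basal clusters, each with an interval below 0. In cluster 11 it was -0.02 (-0.69 to 0.68), and in cluster 14, with 8 and 7 UMIs, it could not be told from 0. Basal clusters in which Sox10 was lower were thus the ones in which Cebpb was higher.

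Sox10 in luminal secretory cells had 72.0 against 90.4 scaled CPM, a ratio of -0.33 (-0.43 to -0.23), or -0.05 outside milk genes and 0.53 on plain CPM. Within luminal clusters it was -0.58 in cluster 5, -0.20 in cluster 6 and -0.45 (-0.96 to 0.08) in cluster 15, each scaled to the median gene of its cluster. Plain Sox10 levels were 86.8 against 97.1 CPM in cluster 5 and 104 against 72.7 CPM in cluster 6, where the direction flipped. Basal and luminal secretory cells differed by -0.28 in knockout and 0.07 in wild type cells, or 0.97 there on plain CPM. Hormone-sensing cells had 12 and 13 UMIs, below the luminal secretory level by a log2 of -3.20 and -2.49. The 7 Schwann markers summed to between 7.37 and 25.5 CPM in the 3 epithelial classes, at least 1 of them was at 0 in each, and the highest single one, Mbp, reached 15.1 CPM.

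Runx1, the DNA-binding subunit of a core-binding factor best known from blood cells, lies at 92601466 to 92826074 on chromosome 16, minus strand. The noncoding RNAs 2310067E19Rik, Gm30281 and Gm24928 overlap Nfib, Runx1 and Trp63. Runx1 was mainly basal, at 755 against 646 scaled CPM, a ratio of 0.23 (0.19 to 0.26). Luminal secretory cells had 72.3 and 70.4, a ratio of 0.04 (-0.07 to 0.15) that plain CPM put at 0.90, and hormone-sensing cells had 110 and 112, a ratio of -0.03 (-0.46 to 0.42), or 1.34 with free RNA subtracted. Basal cells exceeded luminal secretory cells by a log2 of 2.87 (2.79 to 2.96) in knockout and 2.74 (2.66 to 2.82) in wild type cells, which is 7.33-fold and 6.67-fold. Hormone-sensing and luminal secretory cells did not differ beyond the intervals, at 0.17 (-0.10 to 0.44) and 0.30 (-0.07 to 0.64). Thinned shares with a Runx1 UMI were 73.0% and 63.9% of basal, 16.9% and 9.65% of luminal secretory, and 23.1% and 18.9% of hormone-sensing cells. Within the larger basal clusters no difference in Runx1 between libraries was detectable: the interval included 0 in clusters 0, 1, 2 and 3, while mitosis-led cluster 8 had 0.54 (0.34 to 0.74) and cluster 14 had -0.39 (-0.71 to -0.07).

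Trp63 encodes p63, which maintains the basal layer, and lies at 25683763 to 25892088 on chromosome 16, plus strand. Its isoforms with and without the transactivation domain differ at the 5' end, so 3' counts do not tell them apart. Basal cells had 3032 and 2182 UMIs, or 126 against 147 scaled CPM, a ratio of -0.22 (-0.30 to -0.14). They exceeded luminal secretory cells by a log2 of 5.19 (4.76 to 5.66) in knockout and 5.22 (4.86 to 5.61) in wild type cells. Luminal secretory cells held 43 and 62 UMIs in all, a ratio of -0.24 (-0.83 to 0.35), and hormone-sensing cells 5 and 6. Since so few luminal UMIs stand in the contrast, its size is a description.

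Snai2, a zinc finger repressor of epithelial genes and a partner of basal identity, lies at 14705852 to 14709395 on the same chromosome and strand. Basal cells had 3832 and 2498 UMIs, or 159 against 168 scaled CPM, a ratio of -0.08 (-0.15 to -0.01). They stood above luminal secretory cells by 5.17 (4.79 to 5.58) and 5.65 (5.25 to 6.07) on the log2 scale. Luminal secretory cells held 55 and 53 UMIs, a ratio of 0.34 (-0.23 to 0.92), and hormone-sensing cells 4 and 6. For both basal factors the intervals of this contrast overlapped between the libraries. On plain CPM the contrast was 5.27 and 6.12 for Trp63 and 5.25 and 6.54 for Snai2.

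Shares per cell gave the same picture for this pair. Thinned to 2000 UMIs, a Trp63 UMI was held by 21.1% of knockout basal cells and 25.2% of wild type ones, against 0.511% and 0.407% of luminal secretory cells. For Snai2 these shares were 24.2% and 27.7% of basal and 1.15% and 0.244% of luminal secretory cells. Without thinning, 4 of 145 knockout and 5 of 125 wild type hormone-sensing cells held a Snai2 UMI, and the same numbers held a Trp63 UMI. Thinned, the Trp63 shares there were 0.699% and 4.10% (1.34 to 9.31%). Free RNA can give UMIs to cells that lack a gene. The 11 basal markers, which luminal cells should lack, summed to 780 CPM in knockout luminal secretory cells against 31915 in basal cells. In the wild type library they summed to 460 against 42159 CPM. Trp63 and Snai2 in luminal secretory cells lay near these proportions of their basal levels. Free RNA, doublets left in and low expression were not told apart, so these UMIs are not read as expression. Thinning left out 27 and 105 luminal secretory, 193 and 2942 basal, and 2 and 3 hormone-sensing cells.

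**Figure D3:**
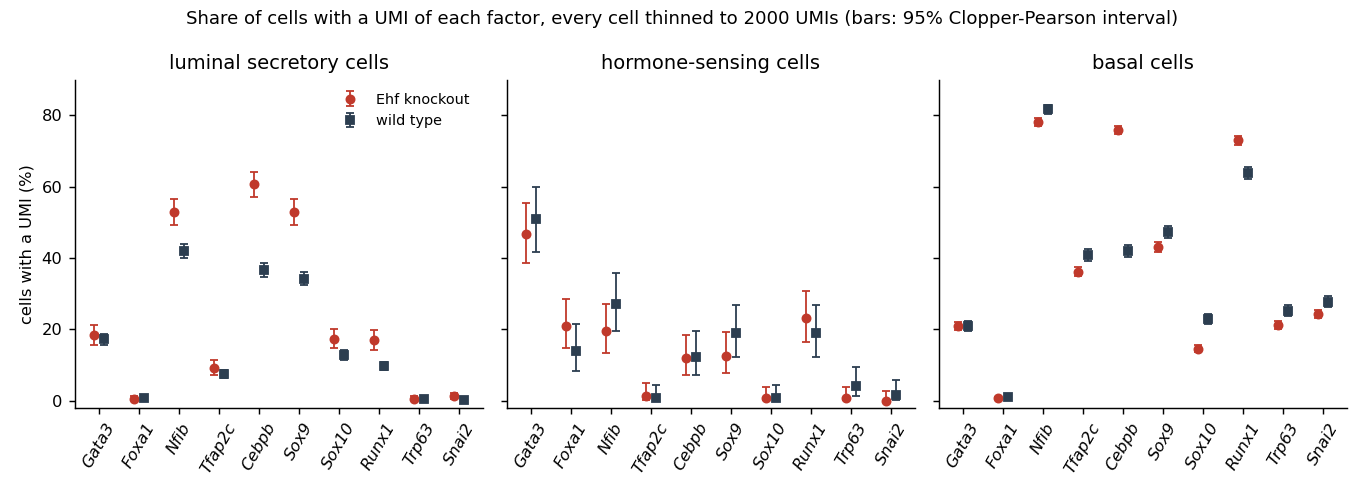
Percent of cells (vertical axis) with at least 1 UMI of each factor after every cell was thinned to 2000 UMIs, in 3 panels by class, with knockout as red circles, wild type as dark squares and 95% Clopper-Pearson bars. Cebpb in basal cells is at 75.9% against 41.9%, Sox10 in basal cells at 14.6% against 22.9%, and Trp63 and Snai2 lie at or below 4.10% outside basal cells. The 2000 UMIs include those of milk genes.

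Of 10 tested factors, 0 were called higher and 1 lower in luminal secretory cells, where 33.2% of all genes were called in either direction, and 1 higher and 1 lower in basal cells, where 12.6% were. On plain CPM the luminal secretory counts were 6 higher and 0 lower. In hormone-sensing cells 6 factors had at least 50 UMIs over both libraries and 0 were called in either direction, where 17.7% of 4236 genes were called, 9.28% higher and 8.40% lower. The median factor lay at a log2 ratio of -0.24 in luminal secretory, -0.08 in basal and -0.21 in hormone-sensing cells, against 0 for all genes by construction. On plain CPM all 10 luminal secretory ratios were above 0, from 0.15 to 1.20, so the sign flipped for Gata3, Foxa1, Nfib, Tfap2c, Sox10 and Trp63. The median size of the ratio, whatever its sign, was 0.28, 0.21 and 0.27 for the factors and 0.39, 0.21 and 0.26 for all tested genes in the same order.

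**Figure D4:**
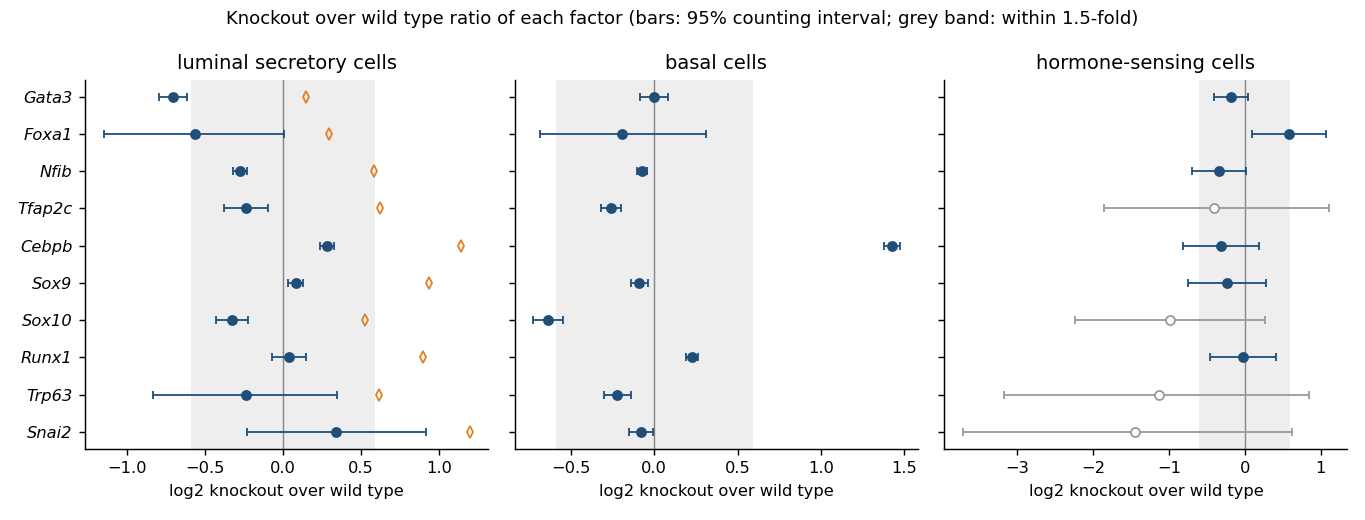
Log2 knockout over wild type ratio of each factor (horizontal axis) in luminal secretory, basal and hormone-sensing cells, with 95% counting intervals and a grey band for differences within 1.5-fold. Orange diamonds in the luminal panel give the plain CPM ratio, and grey open circles are factors with under 50 UMIs over both libraries. Cebpb (1.42) and Sox10 (-0.64) in basal cells and Gata3 (-0.71) in luminal secretory cells lie outside the band, and Foxa1 in hormone-sensing cells lies at its edge.

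Between classes, in the knockout library 5 of 10 factors (Nfib, Tfap2c, Runx1, Trp63 and Snai2) were called higher in basal than in luminal secretory cells, where 30.1% of genes were, and 0 lower, where 25.5% were. In the wild type library these were 4, the same list without Nfib, with 31.8% of genes, and 1 lower (Cebpb) with 30.5%. The factors called in either direction were thus no larger a share than genes at large. Trp63 and Snai2, with 43 to 62 luminal secretory UMIs, met the minimum of 50 UMIs mainly through basal cells. In hormone-sensing cells Gata3 and Foxa1 were called higher than in both other classes in both libraries. Of all genes, 26.2% (knockout) and 28.1% (wild type) were higher there than in luminal secretory cells, and 28.3% and 27.8% higher than in basal cells. Nfib, Cebpb and Sox9 were called lower there than in both, where 27.5% and 28.2% of genes were lower than in luminal secretory cells and 31.5% lower than in basal cells in either library. For Tfap2c and Sox10, with 8 to 13 hormone-sensing UMIs, and for Trp63 and Snai2, with 4 to 6, the minimum was met through the other class, so no count is read from them.

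The libraries differ in the milk RNA of their secretory cells, so the factors were also read at a matched share of milk protein UMIs. Non-cycling luminal secretory cells were grouped by that share. Levels are UMIs per 1000000 UMIs outside milk protein genes and are not scaled to the median gene. On CPM outside milk protein and milk lipid genes the median gene of the whole class lay at 0.28. The median gene within a group was not computed. The groups held 225 knockout and 76 wild type cells below 5%, 138 and 119 at 5 to 15%, 70 and 647 at 15 to 35%, and 20 and 1267 above 35%. These are ranges of a continuous score and not cell types. The last knockout group, with 20 cells, is thin.

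Cebpb was higher in the knockout library in each group, at 562 against 247, 719 against 397, 719 against 437 and 618 against 384 per 1000000 such UMIs, and at 631 against 486 in cycling cells. None of these intervals overlapped. Sox9 was highest in cells with the least milk RNA, at 729 in knockout and 547 in wild type cells, and was 371 and 393 in cells with the most. Sox10 also went from its highest level in wild type cells with the least milk RNA, 208, to 91.5 in those with the most, while knockout cells lay between 75.3 and 111.

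Gata3 was lower in the knockout library in the first 3 groups, at 114 against 169, 136 against 204 and 143 against 181, with overlapping intervals in the first (97.5 to 132 and 125 to 225) and the third (118 to 172 and 167 to 195). Above 35% it was 145 (27 UMIs) against 133, which did not differ beyond counting error. In cycling cells (357 knockout, 453 wild type) it was 119 against 185. Nfib was 591 against 738, 395 against 776, 424 against 585 and 323 against 407, lower in the knockout library in each group. For Nfib the intervals overlapped in the group above 35% alone. In cycling cells Nfib was 571 against 647. Over the whole class, whose groups differ in size between the libraries, it was 543 against 532 on the same scale, so the groups and the class gave different readings.

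**Figure D5:**
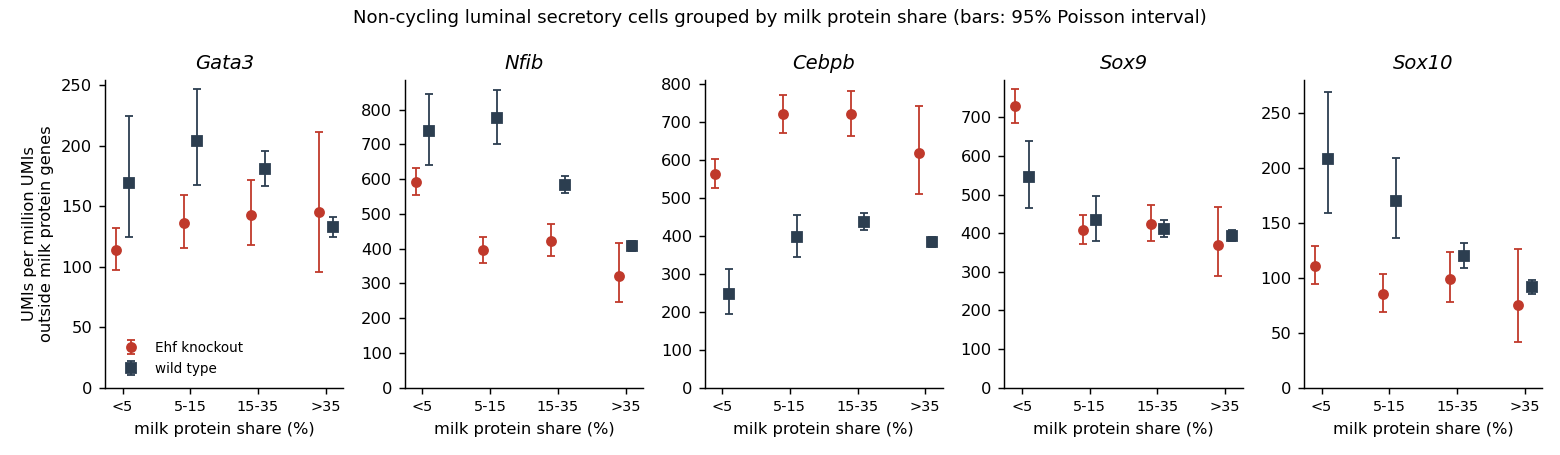
Level of Gata3, Nfib, Cebpb, Sox9 and Sox10 (UMIs per 1000000 UMIs outside milk protein genes, vertical axis from 0) in non-cycling luminal secretory cells grouped by the percent of UMIs from milk protein genes (horizontal axis), with knockout as red circles, wild type as dark squares and 95% Poisson bars. Cebpb is higher in the knockout library in all 4 groups and Nfib lower, while Gata3 comes together in the group above 35%.

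Factors that define different layers were also looked for in single cells. In thinned basal cells Trp63 and Gata3 shared 245 of 5304 cells of the knockout library and 176 of 3276 of the wild type library, where the product of their separate shares gives 232 and 173. The pair was seen in 0 of 783 and 4 of 2457 luminal secretory cells. Trp63 and Tfap2c were seen together in 396 and 346 basal cells against products of 404 and 336. Sox9 and Sox10, both known for progenitor states, shared 348 and 356 basal cells against products of 333 and 355. These pairs were thus seen in basal cells about as often as the product of their shares gives. Some other pairs departed more, in both directions. Snai2 and Tfap2c shared 504 knockout basal cells against 465, and Sox10 and Gata3 175 wild type ones against 157. Trp63 and Foxa1 shared 4 wild type basal cells against 7.04.

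The genes with the most similar pattern to each factor were ranked by Pearson's r over 30 units, each a cluster of 1 library with at least 50 cells. Units include other cell types, share libraries and depth, and the values are a description. Trp63 went most closely with Fmod, Col17a1 and Lama3 (each 0.99) and Snai2 with Tgfb1i1, Myl9 (both 0.99) and Acta2 (0.98), of which Myl9 and Acta2 were among the basal markers. Runx1 went with Wipf3 (0.96), Sphk1 (0.94) and Arc (0.94), and Tfap2c with Rbm38 (0.95), Tspan2 (0.95) and Pdlim3 (0.94). Foxa1 went with Slc35f3 (0.93), Igf2 (0.92) and Wnk4 (0.92), and Gata3 with Wnt4 (0.84, a hormone-sensing marker), Spint2 (0.81) and Wdr47 (0.81). Nfib went with its paralog Nfix (0.92), Epha4 (0.92) and Jade1 (0.90), and Sox9 with Fxyd3 (0.88), Apobec3 (0.87) and BC006965 (0.83). Sox10 went with Reep5 (0.81), Ap4s1 (0.79) and Tcf7l2 (0.79), and Cebpb with Nolc1 (0.82), Atf4 (0.80) and Eif4a1 (0.80). Among the factors themselves the closest pairs were Trp63 with Snai2 (0.96), Tfap2c with Trp63 (0.91) and Runx1 with Trp63 (0.89).

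Paralogs and partners of the 10 factors were read from a list of 27 genes. In luminal secretory cells 4 of 15 tested were called higher and 1 lower in the knockout library, where 15.1% and 18.1% of all genes were. Higher were Tfap2b (1.63), an AP-2 paralog, Sox12 (1.21), Trp53 (1.18), the tumour suppressor p53 and a paralog of Trp63, and Nfix (0.75), named after its value was seen. Cebpd, a paralog of Cebpb, was lower, at 274 against 623 scaled CPM, a ratio of -1.18 (-1.23 to -1.14) that was -0.33 on plain CPM. In basal cells 3 of 19 were higher and 0 lower, where 6.08% and 6.51% of genes were. These were Foxa3 (1.21, from 45 and 12 UMIs), Sox4 (0.78), a factor of progenitor and mesenchymal states, and Cebpd (0.75), at 1246 against 742 scaled CPM, while Zfpm1, a Gata cofactor, was at 0.48 (-0.01 to 0.99). In hormone-sensing cells 4 of 11 were higher and 0 lower, where 9.28% and 8.40% of genes were. These were Sox11 (1.84, from 52 and 8 UMIs), Sox4 (1.12, from 508 and 128 UMIs), Tfap2b (0.90) and Trp53 (0.61, interval -0.19 to 1.48). The list's medians were 0.25, 0.09 and 0.25 in the same order of classes.

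Among 20 other luminal regulators, 4 of 15 tested were called higher and 1 lower in luminal secretory cells, with a median of 0.23, where 15.1% and 18.1% of all genes were. Tbx3 (1.37), a T-box factor of hormone-sensing cells, Hey1 (1.08) and Ovol2 (0.77, interval -0.05 to 1.61) were higher, as was Pgr (0.75), the progesterone receptor, named after its value was seen. These 4 rested on 23 to 89 UMIs per library. Xbp1, a factor of the secretory pathway, was lower at -1.35, or -0.50 on plain CPM. In basal cells 2 of 16 were higher and 2 lower, against 6.08% and 6.51% of genes, with a median of -0.18. Hes1, a Notch target, was at -0.78, while Grhl1 was at 0.68 and Klf5 at 0.67. In hormone-sensing cells 2 of 9 were higher and 0 lower, against 9.28% and 8.40% of genes. Higher were Id2 (1.07, from 42 and 11 UMIs) and Stat5a (0.76), while Hes1 was at 0.56 and Tbx3 at 0.38, and the median was 0.17.

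Among 22 other basal regulators, of which 21 were in the files, 1 of 16 tested in basal cells was called higher and 3 lower, against 6.08% and 6.51% of all genes, with a median of -0.26. Id4, an inhibitor of helix-loop-helix factors, was at 182 against 93.3 scaled CPM, a ratio of 0.97 (0.88 to 1.05). Lower were Tcf7l2, a Wnt pathway factor, at -0.70 (-0.76 to -0.65), Egr2 at -0.61 and Twist2 at -0.77 on 38 and 40 UMIs. In luminal secretory cells 1 of 10 was higher, Srf (0.97), and 0 lower, against 15.1% and 18.1% of genes, with Id4 at 0.42 and Tcf7l2 at -0.34, a sign that flipped on plain CPM, and the median was 0.21. In hormone-sensing cells Tcf7l2 (-0.46) and Tcf4 (-0.03) were tested and 0 were called.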

How the data were processed

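The authors deposited raw UMI counts per gene and cell barcode, 1 matrix per library, which were whole numbers with a minimum of 500 UMIs per barcode. Seurat 4.0.4, GRCm38 and mm10 are named in the submitters' processing notes, and the aligner was not given in the sources used here. Features without a symbol, 1314 in number, held 1.74% of knockout and 1.36% of wild type UMIs and were left out. Cells with at least 500 genes, 1000 UMIs and at most 20% mitochondrial UMIs were kept (6561 knockout, 9211 wild type). Scrublet's own threshold called 0 doublets in the knockout library, so the wild type threshold of 0.379 was applied to both, which removed 38 and 122 cells. Cells were clustered with scanpy 1.11.5 (2000 variable genes, 30 components, 20 neighbours, Leiden resolution 1), leaving out the 10 factors, milk genes, and mitochondrial and ribosomal protein genes. Clusters were named from marker lists that hold none of the 10 factors, with at least 3 detected markers.

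UMIs were summed per class, and median-ratio scaling was applied within a class or contrast to genes whose UMIs in the 2 libraries summed to 50 or more. Intervals at 95% were exact and conditional for ratios and Clopper-Pearson for shares (scipy 1.17.1). Reads share cells and animals, so these cover counting error only. Each genotype has 1 library, so there is no test. In simulated data 200 genes were changed by a log2 of 1. The median recovered was 0.99 in luminal secretory (11133 genes), 1.00 in basal (12201) and 1.01 in hormone-sensing cells (4241). The simulated counts were drawn from 1 profile pooled over both libraries, with as many genes raised as lowered. They hold no milk shift, so they do not check the scaling of luminal ratios. Named genes were the 10 factors, the 3 most similar genes of each, and the 4 genes of each list with the largest ratio. Values of 2 genes of these lists are not reported here. The 10 factors and the lists were chosen with earlier results of these data known. The 15 stress genes and 2 alternatives (without clusters 11 and 14, and without clusters 6 and 8) were chosen after seeing the data. Other scalings, gene minimums, cell filters, doublet handling, equal weight per cell and free RNA subtraction were tried as alternatives.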

Additional observations from a re-analysis of the deposited data

Results flagged for a closer look

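Cebpd, the paralog of Cebpb, went in opposite directions in the 2 layers. Its log2 knockout over wild type ratio was 0.75 in basal cells and -1.18 in luminal secretory cells, or -0.33 in the latter on plain CPM. The difference between the layers was not tested, since each genotype has 1 library.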

How the results depend on the processing

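In basal cells Cebpb (1.39 to 1.52) and Sox10 (-0.67 to -0.60) stayed past 1.5-fold in all 14 alternatives. Gata3 in luminal secretory cells stayed past it in 11 of 13, the exceptions being CPM outside milk genes (-0.43) and plain CPM, where it reversed to 0.15. Cebpb in basal over luminal secretory cells of the wild type library also reversed on plain CPM, to 0.25. Foxa1 in hormone-sensing cells ran from 0.39 to 0.85. The share of all genes called was not computed under the alternatives, so the counts of factors below have nothing beside them. Plain CPM gave 6 factors higher in luminal secretory cells (Tfap2c, Cebpb, Sox9, Runx1, Trp63 and Snai2), 0 lower, and 1 higher in hormone-sensing cells (Foxa1). In luminal secretory cells the median gene itself lay past 1.5-fold on plain CPM. CPM outside milk genes gave 1 higher (Snai2) and 0 lower in luminal secretory cells. With a gene minimum of 10 UMIs, hormone-sensing cells had 1 higher (Foxa1) and 3 lower (Sox10, Trp63 and Snai2). Luminal secretory cells had 2 lower with equal weight per cell, with free RNA subtracted and with the looser cell filter (Gata3 and Foxa1 each time), and with no doublets left out (Gata3 and Trp63). Without clusters 6 and 8 they had 2 lower (Gata3 and Foxa1) and 1 higher (Snai2). Hormone-sensing cells had 1 higher (Foxa1) with equal weight per cell, with either other cell filter and with no doublets left out, and 4 lower (Nfib, Cebpb, Sox9 and Sox10) with the stricter filter and with no doublets left out. With free RNA subtracted they had 3 higher (Nfib, Sox9 and Runx1) of 5 tested. In hormone-sensing cells that subtraction was uneven, set at 10.7% of knockout and 33.7% of wild type UMIs, so no direction is read from it. The cause of these changes was not tested. Of 381 genotype ratios under alternatives, 325 lay within the interval of the reported value, 55 lay outside it and 1, a value past 1.5-fold, turned its sign. Signs of smaller values turned too, as for Foxa1, Nfib, Tfap2c, Sox10 and Trp63 in luminal secretory cells on plain CPM. Runx1 in these cells ran from -0.55 to 0.90 over the alternatives. Of 276 basal over luminal secretory ratios, 60 lay outside the interval and 1 turned its sign. Of 200 levels in milk groups 47 lay outside it, and of 60 shares 48 did when cells were thinned to 1000 UMIs. Of 78 counts of factors called, 20 moved by more than 1.5-fold, or to or from 0. Hormone-sensing values rest on 145 and 125 cells, which limits their depth. No paired analysis was possible because each genotype has 1 library, and no replicate could be left out.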
